A study of Mus musculus with 18 samples.

Results

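The genes described here are the eukaryotic translation initiation factor (eIF) genes of mouse liver. They were taken as the rows of the expression table whose symbol starts with Eif followed by a digit from 1 to 6, without Eif4ebp3. This gave 54 of 19057 gene symbols, and 52 of the 54 were expressed highly enough to be tested. Livers came from male ICR mice, an outbred stock, at 10 weeks of age, with 3 livers in each of 6 groups. Con mice were the controls. STZ mice received streptozotocin, a toxin of the insulin-producing beta cells of the pancreas. A10-FMT and Con-FMT mice received STZ and then gut microbiota by mouth, either from donors dosed with alginate oligosaccharide (AOS) at 10 mg/kg or from control donors. The intestinal contents of each donor group had been pooled, so each FMT group tested a single inoculum. AOS mice received AOS at 10 mg/kg without STZ, and STZ+AOS mice received both agents. These last 2 groups are known from the sample labels only. The labels number the 3 livers of a group but do not describe them further. The p-values below rest on the spread between livers within groups, pooled over all groups of a fit. They do not measure the spread of the compared groups alone.

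Initiation factors bring the ribosome to the start codon of an mRNA. In this pathway eIF2 carries the initiator tRNA as a ternary complex with GTP, eIF3 and eIF1 hold the small ribosomal subunit open for scanning, and eIF4F (the cap-binding eIF4E, the helicase eIF4A and the scaffold eIF4G) loads the mRNA. Liver controls the pathway at 2 well known points. Kinases that phosphorylate the alpha subunit of eIF2 block its recharging by eIF2B, and mTORC1, which insulin and amino acids activate, phosphorylates the 4E-BP proteins and so frees eIF4E.

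All values are RPKM, a read density corrected for transcript length and for sequencing depth, so levels of different genes can be set side by side. The 18 libraries held 9955 to 10409 genes at 1 RPKM or more, and the steps between low values gave relative depths of 0.954 to 1.10. The sum of RPKM differed between groups, from 621121 to 642433 in STZ+AOS and 631126 to 684659 in STZ to 749557 to 806937 in Con. In STZ against Con the median over all 10602 tested genes was a log2 change of 0.21, so each change below is read against that shift. All 7 hepatocyte markers in the table were above 1 RPKM in every library. The summed level of 6 Kupffer cell markers was 64.3 to 85.0 in Con and 89.0 to 200 in STZ, with all 6 above 1 RPKM in every library. Marco differed most, at 3.34, 1.81 and 2.96 in Con and 21.1, 67.4 and 9.67 in STZ. C1qa also did not overlap between the groups, whereas Clec4f, Adgre1, Vsig4 and Cd68 did. The part of these cells in the results was not tested. In bulk liver, fewer cells of a type and less RNA per cell cannot be told apart. Of the pancreatic acinar markers only Cela1 was above 1 RPKM throughout. It was lower in every mouse given STZ than in every Con or AOS mouse, at 30.8, 40.5 and 36.3 in Con and 5.39, 2.96 and 8.73 in STZ, and its part in the results was not tested. The library STZ+AOS 3 alone also held Cpa1 (3.31), Pnlip (7.23) and Amy2a5 (10.1) above 1 RPKM.

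The initiation factors covered a wide range of levels. Averaged over the 18 livers, Eif5a (eIF5A, a hypusine-bearing factor that helps stalled ribosomes forward) had 315 RPKM, Eif1 (start codon fidelity) 294 and Eif4a1 (the main cytoplasmic eIF4A helicase) 162. The values of Eif5a ran from 240.4 to 377 and those of Eif1 from 183 to 421, so their order is within the spread, whereas Eif4a1 stayed between 138 and 195. By role the median was 51.8 RPKM for eIF4F and its helpers, 45.9 for the 14 eIF3 genes, 26.2 for the start codon and ternary complex genes, 11.7 for the 5 eIF2B subunits and 3.98 for the 4 eIF2 alpha kinases. The list also holds 3 eIF4E inhibitors and 2 genes named as initiation factors but with other roles, Eif4a3 and Eif1ad. Kinases, inhibitors and these 2 genes are counted in the totals below like the factors themselves. At the low end Eif4e3, an eIF4E relative, had a mean of 1.86, Eif5a2 lay between 0.01 and 0.12, and Eif4e1b, an eIF4E form known from oocytes, was listed at 0 in all 18 livers. Eif5a2 and Eif4e1b did not reach 1 RPKM in 3 libraries and were not tested.

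The first comparison asked how the liver differs after STZ. Eif6, Eif1 and Eif4enif1 were higher in STZ than in Con, and Eif1b was lower, each also after either rescaling of the libraries that removes the shift of all genes. Eif6 (eIF6, which keeps the large ribosomal subunit from joining too early) was 25.7, 22.3 and 25.6 RPKM in the Con mice and 39.8, 54.3 and 35.2 in the STZ mice. Its log2 change was 0.77 ± 0.15 (SE, n = 3 and 3, limma adjusted p = 0.00356). Eif4enif1 (4E-T, which binds eIF4E and takes it into the nucleus and into RNA granules) was 6.13, 5.60 and 5.70 in Con and 10.1, 9.73 and 7.53 in STZ, a log2 change of 0.56 ± 0.11 (limma adjusted p = 0.00325). In both genes the lowest STZ mouse was above the highest Con mouse.

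Counted over the whole list as deposited, 29 of 52 genes passed limma's adjusted threshold of 0.05 as higher in STZ (55.8%, with 33.0% of all tested genes) and 1 as lower (5.52% of all tested genes were lower). The median log2 change of the 52 was 0.30, 0.08 above the median of all genes, and 35 of the 52 were above that median. In 34 genes every STZ mouse was above every Con mouse (40.8% of all genes), and in 1 every STZ mouse was below (6.98%). The count depends on the shift of all genes. Median-ratio scaling, which brings the median change of all genes to -0.01, left 3 genes higher and 2 lower (27.1% of all genes passed in either direction), with a median of 0.04 over the list. Quantile normalization left 3 higher and 3 lower (27.6% of all genes). It depends on single mice as well, being 12 without Con 1, 19 without Con 3 and 15 without STZ 2, where 24.2%, 25.9% and 24.9% of all genes passed.

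**Figure D1:**
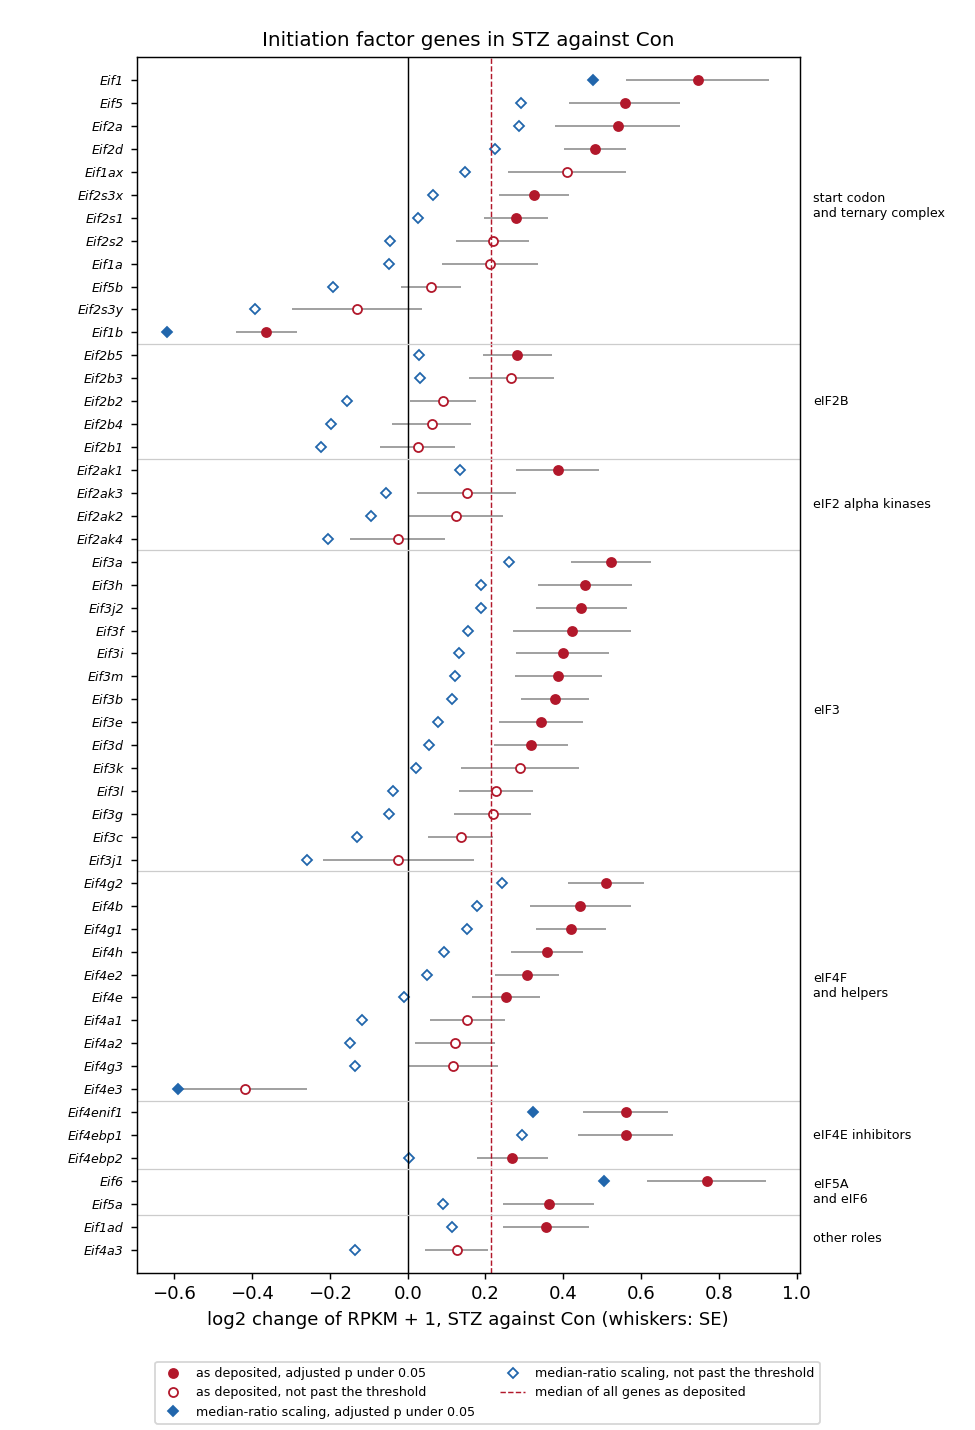
Log2 change of RPKM + 1 in STZ against Con (x axis) for each of the 52 tested initiation factor genes (y axis, grouped by role), as deposited (circles, with SE whiskers) and after median-ratio scaling (diamonds). Filled symbols are past an adjusted p of 0.05. Most circles lie to the right of 0, around or beyond the dashed median of all genes at 0.21, whereas of the diamonds only Eif1, Eif4enif1 and Eif6 are filled on the right and Eif1b and Eif4e3 on the left.

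Among the genes of start codon choice and the ternary complex, 6 of 12 were higher in STZ, 1 was lower and 5 did not pass, and after median-ratio scaling 1 was higher (Eif1) and 1 lower (Eif1b). Eif1 and Eif1b encode near-identical proteins from separate genes, Eif1 at chr11:100319885-100322096 and Eif1b at chr9:120492232-120495330, both on the plus strand of GRCm38. They moved in opposite directions, and their sequences are shown because reads of such a pair could be exchanged. The first 300 coding bases of each, from the GENCODE transcripts, follow with the 55 differing bases in capitals.
Eif1: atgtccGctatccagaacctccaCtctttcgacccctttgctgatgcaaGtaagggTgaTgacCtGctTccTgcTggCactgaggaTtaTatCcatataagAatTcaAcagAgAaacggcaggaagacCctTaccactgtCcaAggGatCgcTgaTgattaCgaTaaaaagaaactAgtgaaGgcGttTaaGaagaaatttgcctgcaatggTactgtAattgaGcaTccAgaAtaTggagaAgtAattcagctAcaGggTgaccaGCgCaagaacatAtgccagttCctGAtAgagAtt
Eif1b: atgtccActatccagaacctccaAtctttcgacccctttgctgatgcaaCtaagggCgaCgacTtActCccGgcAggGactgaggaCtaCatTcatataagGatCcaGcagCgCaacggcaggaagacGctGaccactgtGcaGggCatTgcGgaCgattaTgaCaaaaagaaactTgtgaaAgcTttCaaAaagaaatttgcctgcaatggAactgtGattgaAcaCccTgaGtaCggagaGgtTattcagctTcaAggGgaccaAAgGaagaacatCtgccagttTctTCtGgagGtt
Over the whole coding sequence of 342 bases the genes were 81.3% identical. The longest run of shared bases was 25, and no stretch of 50 bases occurred in both.

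Eif1 was 183, 232 and 206 RPKM in Con and 368, 421 and 267 in STZ, a log2 change of 0.75 ± 0.18 (limma adjusted p = 0.00964). Eif1b was 19.0, 20.0 and 20.5 in Con and 14.7, 15.98 and 14.9 in STZ, a log2 change of -0.36 ± 0.08 (limma adjusted p = 0.00515). For each gene the STZ and Con mice did not overlap. After median-ratio scaling the log2 changes were 0.48 for Eif1 and -0.62 for Eif1b (limma adjusted p of 0.0292 and 0.000895).

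Eif2d (eIF2D, which delivers tRNA without GTP and recycles ribosomes) had the smallest p-value of the list in STZ. It was 15.7, 15.4 and 16.9 in Con and 22.6, 22.6 and 22.9 in STZ, a log2 change of 0.48 ± 0.08 (limma adjusted p = 0.00155). All STZ mice were above all Con mice, but the change did not pass after either rescaling. Of the eIF2 subunits, Eif2s1 (eIF2 alpha, the phosphorylated subunit) was 10.9, 12.4 and 12.2 in Con and 13.9, 14.5 and 15.1 in STZ. Its log2 change was 0.28 (limma adjusted p = 0.0226), close to the shift of all genes. The gamma subunit is made from the X-linked Eif2s3x and the Y-linked Eif2s3y, whose coding sequences were 86.3% identical. Eif2s3x was 22.6, 25.0 and 24.1 in Con and 27.1, 31.9 and 31.7 in STZ (log2 change 0.33, limma adjusted p = 0.016). Eif2s3y was 27.7, 31.9 and 31.5 in Con and 20.0, 34.8 and 30.1 in STZ, with a log2 change of -0.13 that did not pass and turned to 0.09 without STZ 1.

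The eIF2B subunits exchange GDP for GTP on eIF2, and 1 of 5 was higher in STZ as deposited and 0 after median-ratio scaling. This was Eif2b5, the catalytic subunit, with 12.2, 11.8 and 13.8 in Con and 14.7, 15.2 and 16.7 in STZ (log2 change 0.28, limma adjusted p = 0.028). Eif2b1, the regulatory alpha subunit, was nearly level, with 10.8, 10.2 and 10.3 in Con and 10.4, 11.2 and 10.3 in STZ (log2 change 0.03 ± 0.10). Against the shift of all genes it lay lower, at -0.22 after median-ratio scaling (limma adjusted p = 0.0602) and -0.25 after quantile normalization (limma adjusted p = 0.0403).

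Of the 4 eIF2 alpha kinases, Eif2ak1 (HRI, the heme-regulated kinase) passed as higher in STZ as deposited, and none passed after rescaling. Eif2ak1 was 11.2, 13.0 and 11.4 in Con and 18.3, 14.5 and 14.8 in STZ (log2 change 0.39 ± 0.11, limma adjusted p = 0.0164). The kinase is known best from red cell precursors, and 4 erythroid markers summed to 1035 to 1970 RPKM in Con and 422 to 1636 in STZ, nearly all of it Hba-a1 (alpha globin), with 2 of the 4 above 1 RPKM in every library. Alas2, the heme synthesis enzyme of red cells in the same list, was 117, 114 and 121 in Con and 3.59, 9.75 and 43.4 in STZ, every STZ mouse below every Con mouse. The part of these cells in the result was not tested. Eif2ak2 (PKR, activated by double-stranded RNA) was 4.03, 3.88 and 4.03 in Con and 4.07, 4.11 and 5.17 in STZ. Eif2ak3 (PERK, of the endoplasmic reticulum) was 3.12, 2.49 and 3.27 in Con and 2.82, 4.02 and 3.39 in STZ. Eif2ak4 (GCN2, which senses uncharged tRNA) was 1.54, 2.41 and 2.25 in Con and 2.22, 1.69 and 2.08 in STZ. These last 3 kinases had log2 changes of 0.12, 0.15 and -0.03 that did not pass (limma adjusted p of 0.431, 0.363 and 0.884), although each STZ mouse was above each Con mouse in Eif2ak2, and the sign of each turned under at least 1 alternative.

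Of the 14 eIF3 genes, 9 were higher in STZ as deposited, with log2 changes up to 0.52, and 0 after either rescaling. Eif3a, the largest subunit and a scaffold of the complex, was 24.1, 27.7 and 25.2 in Con and 34.0, 42.6 and 35.6 in STZ (log2 change 0.52 ± 0.10, limma adjusted p = 0.00326). Eif3c, which pairs with eIF3a in the core, had a log2 change of 0.14 that did not pass. Eif3j1 and Eif3j2 both encode eIF3j, a loosely bound subunit, and their coding sequences were 99.2% identical, with 99.7% and 98.9% of their 50-base windows shared. Their values (5.13 to 12.6 for Eif3j1 and 16.8 to 35.5 for Eif3j2 over the 18 livers) therefore depend on how the authors' counting split shared reads, and neither is taken as a separate result. Eif3j2 is nonetheless among the 9 genes counted as higher.

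In the eIF4F group 6 of 10 tested genes were higher in STZ as deposited and 0 after median-ratio scaling, where Eif4e3 passed as lower. Eif4g1, the main scaffold, was 57.3, 61.3 and 62.0 in Con and 72.8, 83.5 and 86.8 in STZ (log2 change 0.42 ± 0.09, limma adjusted p = 0.00508). Eif4g2 (DAP5, a scaffold without an eIF4E site) was 52.9, 56.3 and 54.7 in Con and 72.7, 88.0 and 74.5 in STZ (log2 change 0.51 ± 0.10, limma adjusted p = 0.00311). Both scaffolds had STZ mice above every Con mouse. Eif4e, the cap-binding protein, was 23.2, 23.5 and 22.8 in Con and 24.6, 30.9 and 28.2 in STZ, a log2 change of 0.25 (limma adjusted p = 0.0417) that became -0.0081 after median-ratio scaling and -0.02 after quantile normalization. Eif4a1 was 139.5, 159.7 and 154 in Con and 159.6, 177 and 167 in STZ, so that the groups overlapped and the change of 0.15 did not pass. Eif4e3 was 2.47, 1.5 and 2.14 in Con and 1.88, 0.93 and 1.05 in STZ, a log2 change of -0.42 with limma adjusted p = 0.0592 as deposited and 0.0213 after median-ratio scaling, at a level near the filter.

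All 3 eIF4E inhibitors were higher in STZ as deposited, and 1 of the 3 (Eif4enif1) after median-ratio scaling. Eif4ebp1 (4E-BP1) was 54.6, 51.1 and 52.8 in Con and 91.0, 74.1 and 71.3 in STZ, a log2 change of 0.56 ± 0.12 (limma adjusted p = 0.00548), and 0.29 after median-ratio scaling (limma adjusted p = 0.0632). Eif4ebp2 was 36.4, 42.4 and 40.4 in Con and 48.5, 45.3 and 50.2 in STZ, a log2 change of 0.27 (limma adjusted p = 0.0375). For both genes each STZ mouse was above each Con mouse. Eif5a was 240.4, 277 and 264 in Con and 354, 346 and 306 in STZ, a log2 change of 0.36 (limma adjusted p = 0.0319) that did not pass after rescaling.

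**Figure D2:**
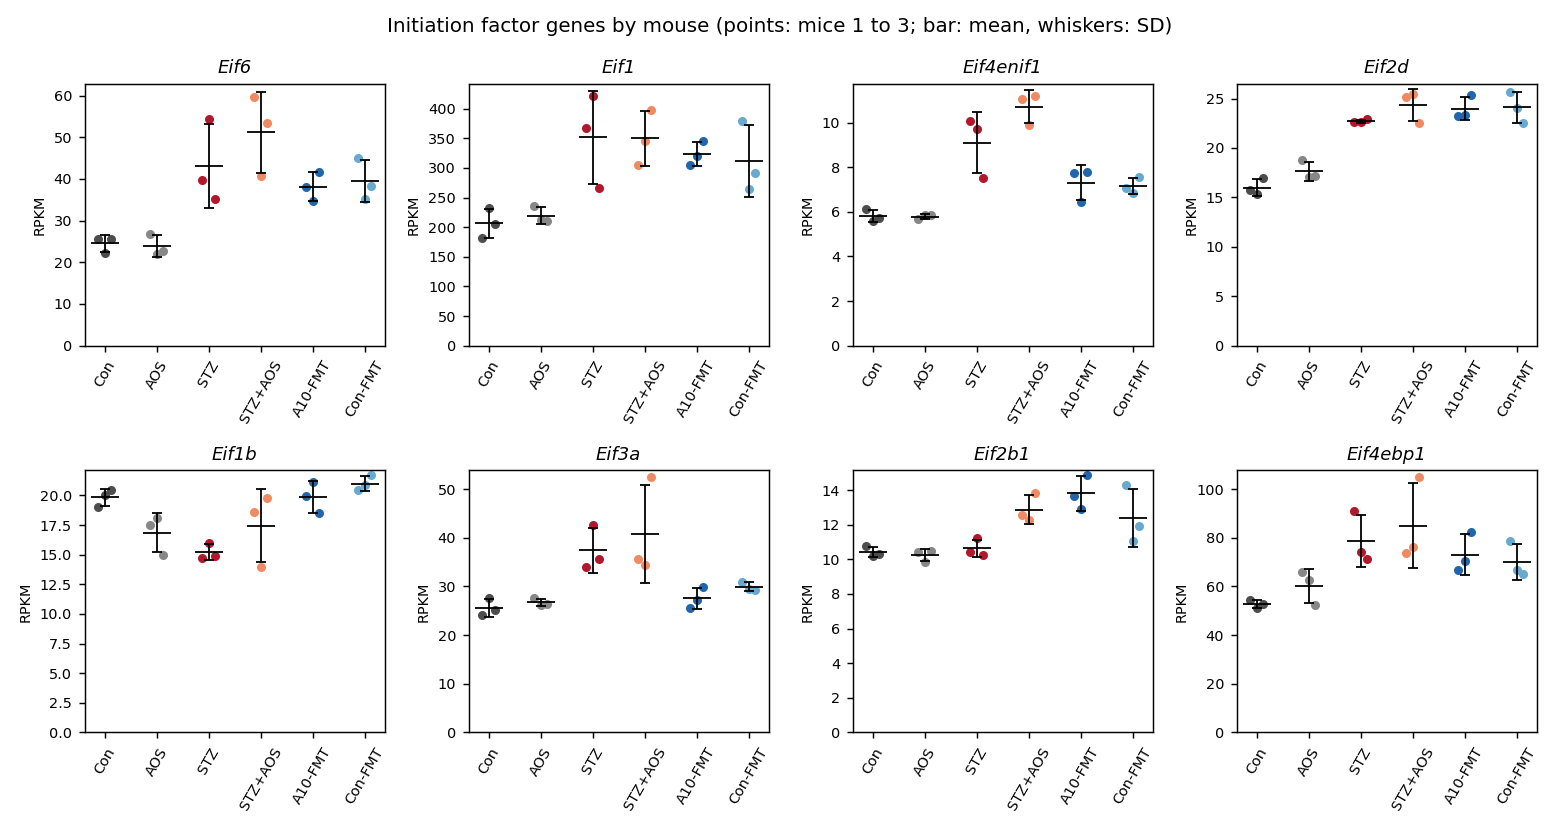
RPKM (y axis, from 0) of 8 initiation factor genes in each of the 18 livers, by group (x axis). Points are the 3 mice of a group, the bar is their mean and the whiskers their SD. Eif6, Eif1 and Eif4enif1 are higher in STZ and STZ+AOS than in Con and AOS, Eif1b has its lowest group mean in STZ (15.2), and Eif2b1 is near 10 in Con, AOS and STZ.

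The STZ effect could be measured again in mice given AOS, since STZ+AOS against AOS shares no liver with STZ against Con. Here 34 of 52 genes were higher and 0 lower by limma (65.4%, with 31.8% of all 10822 tested genes higher and 6.11% lower), and in 40 genes every STZ+AOS mouse was above every AOS mouse (40.5% of all genes). The median log2 change was 0.35 over the list and 0.21 over all genes. Median-ratio scaling left 10 of the 34 higher and quantile normalization 13, and the fit with only these 2 groups left 22, where 12.2%, 12.7% and 19.4% of all genes were higher. Of the 29 genes higher in STZ against Con, 24 were higher here too (82.8% of the first list and 70.6% of the second), beside 69.2% and 71.8% for all genes. Across the 52 genes the log2 changes of the 2 comparisons had a Pearson r of 0.71 (0.88 across all 10602 genes), where genes of one library are not independent.

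Eif6 was 26.9, 21.9 and 22.7 RPKM in AOS and 59.7, 40.7 and 53.3 in STZ+AOS, a log2 change of 1.06 ± 0.16 (limma adjusted p = 0.000395). Eif4enif1 was 5.66, 5.84 and 5.86 in AOS and 11.1, 9.87 and 11.2 in STZ+AOS, a log2 change of 0.79 ± 0.10 (limma adjusted p = 0.000147). Eif2s1 was 11.3, 10.9 and 11.3 in AOS and 16.8, 15.7 and 15.99 in STZ+AOS, a log2 change of 0.50 ± 0.08 (limma adjusted p = 0.000392). The 3 genes had no overlap between the groups, and they stayed higher after median-ratio scaling with log2 changes of 0.82, 0.57 and 0.27. Eif1 followed with 236, 211 and 211 in AOS and 306, 346 and 398 in STZ+AOS (log2 change 0.66, and 0.42 after median-ratio scaling).

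By role, all 5 eIF2B genes were higher in STZ+AOS against AOS as deposited, with log2 changes from 0.30 (Eif2b1) to 0.69 (Eif2b3), and 1 of them (Eif2b3) after median-ratio scaling. Also as deposited, 9 of 14 eIF3 genes, 7 of 12 start codon and ternary complex genes, 6 of 10 eIF4F genes and 2 of 3 eIF4E inhibitors were higher, and after median-ratio scaling 3, 2, 2 and 1 of them. Both eIF3 counts include Eif3j2, whose call is uncertain because its value depends on the split of reads shared with Eif3j1. Of the kinases only Eif2ak1 was again higher as deposited (log2 change 0.29), and none was after rescaling. Eif1b, lower in STZ against Con, had 17.5, 18.1 and 15.0 in AOS and 18.6, 13.9 and 19.8 in STZ+AOS. Its log2 change of 0.04 did not pass, nor did the -0.20 after median-ratio scaling (limma adjusted p = 0.229). Each AOS mouse was also below each Con mouse (19.0 to 20.5), with a log2 change of -0.23 in AOS against Con that did not pass. The difference between the STZ effects with and without AOS did not pass for any of the 52 genes (limma interaction term, 0 of 10822 genes, 0% called; 4 of the 52 had an unadjusted p under 0.05). The smallest p was that of Eif1b, with a difference of 0.40 ± 0.16 (limma adjusted p = 0.856). All 5 eIF2B differences were above 0, from 0.10 to 0.42, and the share of all genes above 0 was not computed. In AOS against Con the 5 genes had log2 changes from -0.29 (Eif2b3) to -0.02 (Eif2b1), none of which passed. The differences therefore include lower means in AOS as well as higher means in STZ+AOS.

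**Figure D3:**
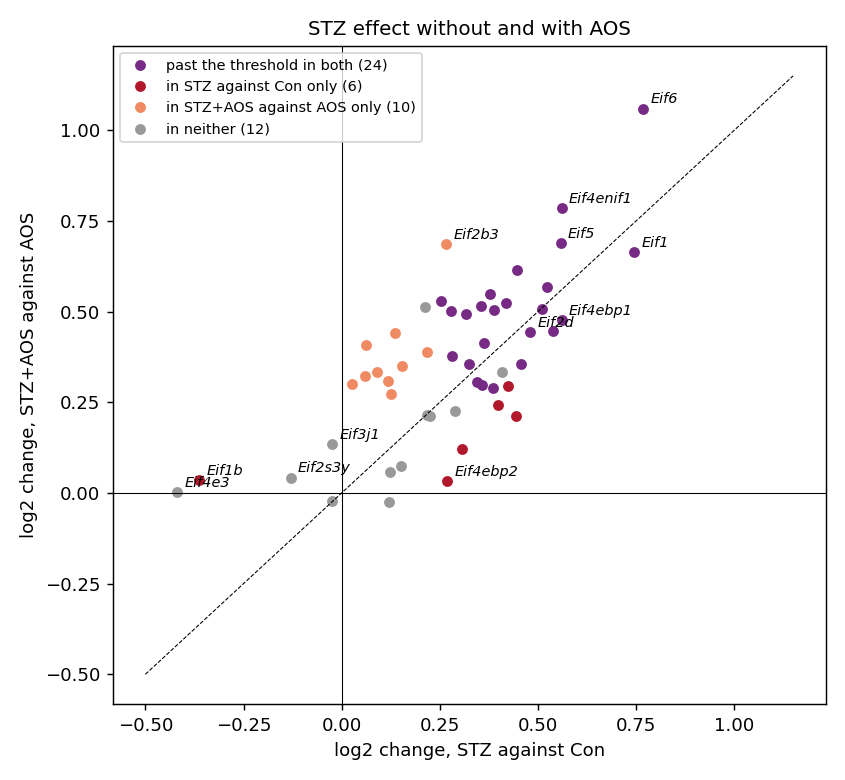
Log2 change in STZ against Con (x axis) and in STZ+AOS against AOS (y axis) for the 52 tested genes, with the line of equal change. Colours give where a gene passed an adjusted p of 0.05, which was both comparisons for 24 genes and neither for 12. Eif6 and Eif4enif1 lie at the upper right, Eif2b3 above the line, and Eif1b at -0.36 on the x axis and 0.04 on the y axis.

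The AOS groups were compared with their backgrounds in the 6-group fit. In AOS against Con 0 of 52 genes passed (0.00924% of all genes), with 2 at an unadjusted p under 0.05. The smallest p was that of Eif4e2 (4EHP, a cap-binding repressor), with 14.1, 15.4 and 16.7 in Con and 17.5, 18.03 and 17.6 in AOS, a log2 change of 0.19 (limma adjusted p = 0.632). In STZ+AOS against STZ 0 of 52 passed (0% of all genes), with 6 at an unadjusted p under 0.05. The smallest p was that of Eif2b1, at 12.5, 12.3 and 13.9 in STZ+AOS (log2 change 0.25, limma adjusted p = 0.806). In that comparison 50 of 52 log2 changes were above 0 and 43 above the median of all genes, which was 0.05. The median of the list was 0.10. After median-ratio scaling the medians were 0.05 (list) and 0.01 (all genes), and after quantile normalization 0.10 and 0.004. STZ+AOS had the highest group mean of 37 of the 53 members not listed at 0, and the lowest mean was in Con for 28 and in AOS for 18. The shares of all genes above 0, or with such an order of means, were not computed. These counts are therefore not read as particular to the list.

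The FMT groups were compared with STZ, to see what the microbiota changed after STZ, and with Con. In A10-FMT against STZ 0 of 52 genes passed in limma (0.226% of all genes), with 9 at an unadjusted p under 0.05 (17.3%, and 20.9% of all genes). In Con-FMT against STZ 0 of 52 passed (0.00943% of all genes), with 4 at an unadjusted p under 0.05 (7.69%, and 20.1% of all genes). Eif1b had the smallest p in both. It was 19.9, 21.2 and 18.5 in A10-FMT and 20.4, 20.9 and 21.7 in Con-FMT, above the 14.7 to 15.98 of STZ in every mouse and beside 19.0 to 20.5 in Con. The log2 changes against STZ were 0.36 (limma adjusted p = 0.0634) and 0.44 (limma adjusted p = 0.0576), and 0.43 and 0.49 after median-ratio scaling (limma adjusted p of 0.0486 and 0.0396). After quantile normalization 0 of the 52 passed in A10-FMT against STZ (0.443% of all genes). These comparisons share the STZ mice. Eif2b1, near 10 in Con and STZ, was 13.7, 12.9 and 14.9 in A10-FMT and 14.3, 11.1 and 11.9 in Con-FMT. Its log2 change in A10-FMT against STZ was 0.35 (limma adjusted p = 0.101, and 0.0461 after median-ratio scaling but not past the threshold after quantile normalization). Eif3a was lower than in each STZ mouse, at 25.6, 27.3 and 29.9 in A10-FMT and 31.0, 29.4 and 29.4 in Con-FMT, without passing (log2 changes of -0.42 and -0.31, limma adjusted p of 0.0762 and 0.141).

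STZ 3 bears on these counts. Without it 5 genes passed in A10-FMT against STZ (12.7% of all genes then passed), namely Eif3j1 and Eif1b higher and Eif3a, Eif4enif1 and Eif3f lower. Without it 3 passed in Con-FMT against STZ (15.5% of all genes), namely Eif3j1 and Eif1b higher and Eif4enif1 lower. The value of Eif3j1 depends on how reads shared with Eif3j2 were split, so its call is uncertain in both. In Eif4enif1 STZ 3 (7.53) lay below the other 2 STZ mice (10.1 and 9.73) and within the range of A10-FMT (6.42 to 7.77). Leaving out STZ 1 gave 1 gene in A10-FMT against STZ (1.07% of all genes).

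Against Con, 11 of 52 genes were higher in A10-FMT as deposited (21.2%, with 15.9% of all genes higher and 2.47% lower). In Con-FMT 15 of 52 were higher (28.8%, with 17.5% of all genes higher and 1.89% lower), and 0 were lower in either. Without Con 1 the counts were 1 and 3, where 5.17% and 5.82% of all genes passed. Eif2d led both. It was 23.2, 23.4 and 25.4 in A10-FMT and 25.7, 24.1 and 22.5 in Con-FMT, as against 15.4 to 16.9 in Con, with log2 changes of 0.56 (limma adjusted p = 0.00214) and 0.56 (limma adjusted p = 0.0025). It was the only gene of the list still higher in each of these comparisons after median-ratio scaling, at 0.37 and 0.35 (limma adjusted p of 0.0154 and 0.0223). Eif6 was 38.2, 34.6 and 41.7 in A10-FMT and 45.0, 35.1 and 38.4 in Con-FMT, above every Con mouse. Eif2b1 passed in A10-FMT against Con (log2 change 0.37, limma adjusted p = 0.0245). Eif2s1 (14.1, 14.02 and 15.9 in A10-FMT, then 16.6, 15.5 and 16.6 in Con-FMT) and Eif4e2 (19.2, 18.6 and 19.7, then 19.5, 19.7 and 21.6) passed in both as deposited. The 2 comparisons share the Con mice. A10-FMT against Con-FMT gave 0 of 52 genes (0% of all genes), with 1 at an unadjusted p under 0.05, which was Eif1a (17.5, 20.4 and 20.6 against 25.7, 20.6 and 26.2, limma adjusted p = 0.999).

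**Figure D4:**
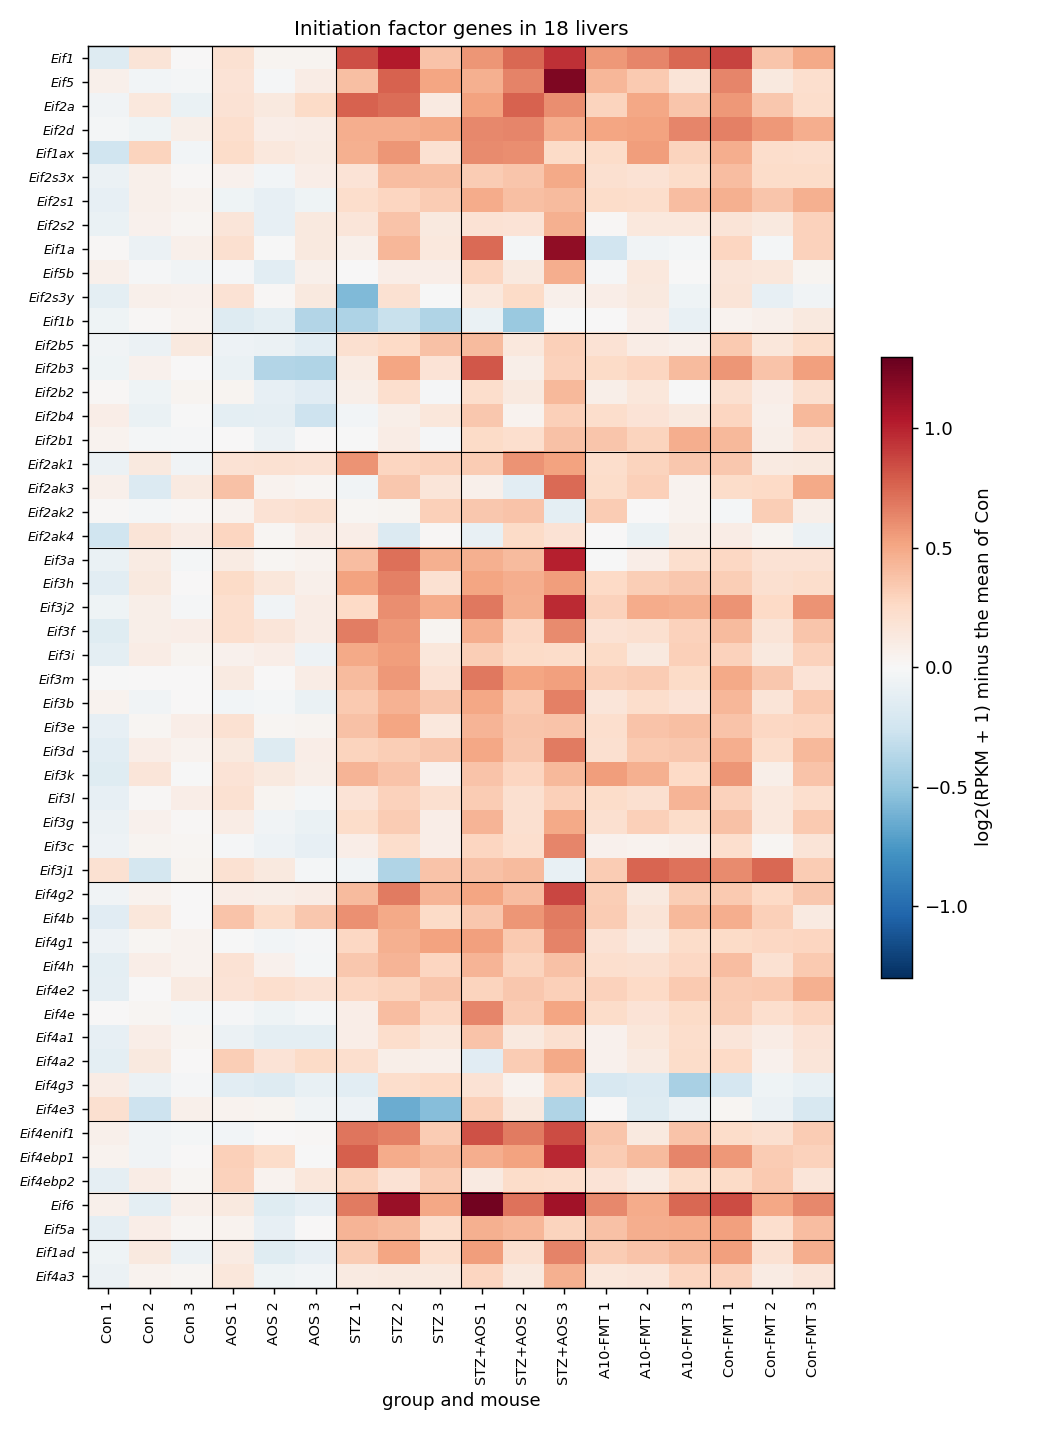
Log2(RPKM + 1) of the 52 tested genes (rows, in the order of roles and change used for the STZ comparison) in each of the 18 livers (columns), minus the mean of the Con mice. Con and AOS columns are pale, STZ, STZ+AOS and both FMT groups are mostly red, Eif1b is blue in the 3 STZ mice, and STZ+AOS 3 stands out in Eif5 and Eif1a.

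The groups also differed in their sum over the list. All genes of the list together, kinases and inhibitors included, made up 0.236 to 0.284% of the summed RPKM in Con and 0.274 to 0.308% in AOS. Their part was 0.353 to 0.454% in STZ, 0.353 to 0.386% in A10-FMT, 0.331 to 0.411% in Con-FMT and 0.415 to 0.486% in STZ+AOS. The 4 groups given STZ did not overlap Con or AOS. The summed RPKM was itself lower in STZ (631126 to 684659) than in Con (749557 to 806937). The median log2 change of all genes in STZ against Con was 0.21. Eif5a and Eif1, with means of 315 and 294 RPKM, weigh most in the sum over the list. How far the difference is particular to this list was not tested. The median coefficient of variation over the 52 genes was 11.7% in STZ and 11.3% in STZ+AOS, as against 6.92% in Con, 5.88% in AOS, 6.38% in A10-FMT and 8.43% in Con-FMT.

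Genes that act beside the initiation factors were followed in fixed lists. Beside their counts, 33.0% of all tested genes were higher in STZ against Con as deposited and 31.8% in STZ+AOS against AOS. After median-ratio scaling 14% were higher and 13.1% lower in STZ against Con, and 12.2% higher and 12.2% lower in STZ+AOS against AOS. Among elongation and termination factors 5 of 11 tested genes were higher in STZ against Con as deposited, including Etf1 (eRF1, which reads stop codons, log2 change 0.84) and Eef2 (0.70). Among the partners of the cap, the poly(A) tail and scanning 6 of 15 were higher, led by Pabpc4 (0.75) and Pabpc1 (0.50), the poly(A)-binding proteins, and 1 was lower, Ncbp2 of the nuclear cap-binding complex (-0.43). Among genes of mTORC1 and MNK control 9 of 16 were higher, including Mknk2, a kinase of eIF4E (1.83), Sesn2, an inhibitor of mTORC1 (1.10), and Mtor itself (0.42). Of 15 tested genes for eIF2 phosphatases and the ATF4 pathway 6 were higher, including Ppp1r15a (GADD34, which directs phosphatase to eIF2 alpha, 0.76), Trib3 (2.50) and Vldlr (1.67). The mitochondrial initiation factors Mtif2 and Mtif3 did not pass as deposited, and Mtif2 was lower after either rescaling. In STZ+AOS against AOS the counts were 7, 6, 9 and 5 higher in the same order, with Fgf21 lower (-0.87) in the ATF4 list. After median-ratio scaling they were 1, 3, 4 and 4 higher, with 2 lower among the cap and poly(A) partners (Ncbp2 and Pdcd4) and Fgf21 still lower. After median-ratio scaling the counts in STZ against Con were 2 higher and 1 lower (Eef2k) for elongation and termination, and 2 higher and 3 lower (Ncbp2, Mcts2 and Pdcd4) for the cap and poly(A) partners. They were 3 higher for mTORC1 and MNK control (Mknk2, Sesn1 and Sesn2). For the ATF4 list they were 5 higher of 15 tested (Trib3, Vldlr, Ppp1r15a, Slc3a2 and Atf3) and 0 lower. Genes of that list that did not pass went in both directions. Among them were Atf4 itself (-0.04), Ddit3 (0.04), Asns (-0.19), Chac1 (-0.51), Fgf21 (-0.34), Atf5 (0.36) and Nupr1 (0.15).

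The promoters of the list were read for short motifs. RefSeq start windows matched 43 of the 54 symbols with 56 windows, and the 250 bases before each start were searched on both strands. The E-box CACGTG, known as a binding motif of MYC and related factors, stood in 11 of 56 windows (19.6%, and 6.02% of all 32851 windows). The GC box GGGCGG stood in 67.9% of the windows (32.7% of all) and the TATA box TATAAA in 7.14% (12.4% of all). The ATF4 motif TGATGNAA stood in 1 window and the CRE TGACGTCA in 0. These are matches of letters only, and the windows of the list were not matched to others in base composition. The E-box windows of Eif4e, Eif1b, Eif5a and Eif4g1 held 0 bases before the first annotated exon and so lay inside the annotated gene. Eif5a entered with several windows, some of which overlap, so 1 site may be counted more than once. The 11 windows belong to 9 genes, of which 5 were higher in STZ as deposited (Eif4e, Eif4h, Eif3f, Eif5a and Eif4g1), 1 was lower (Eif1b), 2 did not pass (Eif3k and Eif4a1) and 1 was not tested (Eif5a2). Of all 52 tested members 55.8% were higher as deposited, and the 5 did not pass after either rescaling. A part of the E-box in these changes was not tested. As examples of genes higher in STZ as deposited, the stretch before the first annotated exon is shown for Eif4h (chr5:134639491-134639659, minus strand) and Eif3f (chr7:108934165-108934414, plus strand) of GRCm38, with the E-box in capitals.
Eif4h: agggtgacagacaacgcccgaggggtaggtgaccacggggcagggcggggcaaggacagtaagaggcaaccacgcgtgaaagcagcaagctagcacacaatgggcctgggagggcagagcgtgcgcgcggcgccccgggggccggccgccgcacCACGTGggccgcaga
Eif3f: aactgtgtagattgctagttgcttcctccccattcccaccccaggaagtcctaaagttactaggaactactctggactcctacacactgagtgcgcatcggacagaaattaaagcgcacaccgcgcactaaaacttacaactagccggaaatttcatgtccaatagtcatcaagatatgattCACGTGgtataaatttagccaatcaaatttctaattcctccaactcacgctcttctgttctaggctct
Eif4h, a cofactor of the eIF4A helicase, was 41.5, 48.3 and 46.9 RPKM in Con and 58.3, 62.3 and 55.3 in STZ. Eif3f, a subunit of eIF3, was 45.3, 53.4 and 54.1 in Con and 81.1, 75.5 and 52.2 in STZ, where the groups overlapped.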

How the data were processed

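Liver mRNA of 18 mice (6 groups of 3) was sequenced on an Illumina instrument. The authors deposited 1 table of RPKM per gene symbol and library with 2 decimals, where the unit comes from the methods. The methods name SOAPaligner, whereas the submitters' processing notes name Bowtie 0.12.2 and the build mm10. The counting tool, annotation and strand setting are not given in the sources used here. Read depth is not part of such values, so no counting error was computed. Relative depth was estimated from the value steps of 15 genes.

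Values were analysed as log2(RPKM + 1), with genes of at least 1 RPKM in at least 3 libraries. Folds on this scale understate the change of low genes. Con, STZ, A10-FMT and Con-FMT entered 1 limma fit (12 libraries, 10602 genes), and contrasts with AOS or STZ+AOS a fit of all 18 (10822 genes), in limma 3.58.1 and R 4.3.3 (lmFit, contrasts.fit, eBayes with trend). The STZ against Con values set beside STZ+AOS against AOS come from the first fit. Tests were two-sided, and adjusted p-values are Benjamini-Hochberg values over every gene tested in a contrast. The members, gene lists and tests were chosen with earlier results of these data known. Per-mouse values are given for up to 6 higher and 6 lower called members with the smallest adjusted p and no overlap in STZ against Con, up to 3 per other contrast, a fixed set by role and the 3 highest and 3 lowest genes. Eif3c, Eif3f and Eif4h were added after their values were seen. Positions and coding sequences come from GENCODE M21 (GRCm38), matched for 54 of 54 symbols, and upstream windows from RefSeq (GRCm38). The procedure was tested on simulated data. Alternatives were 2 rescalings, another pseudocount, 2 other filters, no trend, other groups in the fit, a replicate block and leaving out each mouse. DEGseq, used by the authors, needs read counts and was not run.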

Additional observations from a re-analysis of the deposited data

How the results depend on the processing

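Of 30 genes past the threshold in STZ against Con, 4 remained after median-ratio scaling and 4 after quantile normalization, where the totals were 5 and 6. For the same settings 2 and 0 genes passed when A10-FMT was set against STZ, 1 and 1 for Con-FMT against STZ, 1 and 2 for A10-FMT against Con, 1 and 1 in Con-FMT against Con, and 10 and 13 in STZ+AOS against AOS. The shares of all genes were 0.726% and 0.443%, 0.689% and 0.707%, 10.9% and 10.4%, 8.17% and 7.97%, and 24.5% and 25.3% in the same order. Many log2 changes in STZ against Con changed sign after quantile normalization, for example those of Eif5b (-0.22), Eif2b4 (-0.20) and Eif4a2 (-0.18). Among the genes followed under every alternative they were Eif2b1 (-0.25), Eif2ak2 (-0.080), Eif2ak3 (-0.042), Eif4e (-0.020) and Eif4a1 (-0.11). After median-ratio scaling the same 5 were at -0.22, -0.094, -0.055, -0.0081 and -0.12.

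Without a filter on low values 1 gene passed in Con-FMT against STZ (0.0892% of all genes) and 7 in A10-FMT against Con (6.98%). The median of the list in STZ against Con was then 0.24 above that of all genes, since many unexpressed genes count at 0. With only the compared groups in the fit, which leaves fewer samples for the spread, the totals were 12 for STZ against Con, 24 for A10-FMT against Con and 22 in STZ+AOS against AOS. Of all genes 25.7%, 32.8% and 23.9% then passed.

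Leaving out 1 mouse at a time gave 12 to 31 genes for STZ against Con, 0 to 5 for A10-FMT against STZ, 0 to 3 in Con-FMT against STZ, 1 to 7 in A10-FMT against Con, 3 to 15 in Con-FMT against Con and 25 to 33 in STZ+AOS against AOS. The shares of all genes moved as well, from 24.2 to 47.4%, 0 to 12.7%, 0 to 15.5%, 5.17 to 13.9%, 5.71 to 19.8% and 25.6 to 37.5% in the same order. In A10-FMT against Con the total was 1 without Con 1, 7 without Con 2, 2 without Con 3, 2 without A10-FMT 1, 3 without A10-FMT 2 and 1 without A10-FMT 3. In Con-FMT against Con it was 3 without Con 1, 9 without Con 2, 4 without Con 3, 3 without Con-FMT 1 and 4 without Con-FMT 3. The log2 change of Eif2ak4 ranged from -0.16 to 0.057 and changed sign without Con 2, Con 3 or STZ 2. That of Eif2s3y ranged from -0.29 to 0.093 (positive without STZ 1), and that of Eif2b1 from -0.0099 (without STZ 2) to 0.049. In every other contrast the total stayed at 0 under the alternatives run. The cause of these changes was not tested.

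With the mouse number as a replicate block, 28 genes passed for STZ against Con (35% of all genes), 5 for A10-FMT against Con (13.6%), 7 in Con-FMT against Con (13.7%) and 33 in STZ+AOS against AOS (37.2%), and 0 elsewhere. The numbers do not pair the samples: deviations of same-numbered mice had a correlation from -0.25 to 0.47 (median 0.03), above 0.1 in 15 of 45 pairs. Depth in reads was not known, which limits statements on Eif2ak4 and Eif4e3 at about 2 RPKM.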
